A study of Danio rerio with 20 samples.

Results

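The proteins of the cytosolic ribosome are encoded by the rpl genes (large subunit) and the rps genes (small subunit). They were taken here as every gene of the count table whose symbol begins with rpl or rps followed by a number, or by p or a, with the rps6k kinases and placeholder names left out. This gave 85 of 32105 genes, 47 named rpl and 38 named rps. Liver RNA of 20 male zebrafish (Danio rerio) of strain AB JxTu was sequenced. The exercised 3-year and exercised 1-year fish swam in a swim-tunnel, a chamber with a water current, and the resting 3-year and resting 1-year fish had no perturbation, with 5 fish in each of these 4 groups. No allele or agent was named for any group, and the sources used here do not give the duration of the swimming or say whether each library came from its own animal. A library is called a fish below. Replicate numbers were assigned here by the order of the samples within each group, as the labels give none. The p-values rest on the spread between libraries alone, and that spread may be technical.

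Each ribosome joins ribosomal RNA with a single copy of nearly every ribosomal protein, the stalk proteins being the exception, so these proteins are needed in matched amounts. In vertebrates their mRNAs are among the most abundant of a cell and share a terminal oligopyrimidine (TOP) tract at the 5′ end, through which the kinase complex mTORC1 and the binding protein LARP1 control their translation. Hepatocytes export much of the plasma protein and so hold many ribosomes.

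The members were checked against their names. Of the 85 genes, 80 had a mean of at least 100 CPM (46 rpl and 34 rps). CPM here is a gene's count scaled to a common library size with TMM, which sets libraries level on the bulk of their genes, and "plain CPM" is divided by the library total only. The limit of 100 was chosen after the levels had been seen. RPL22L1 lay just inside it (mean 194.5 CPM) and rps27l just outside (67.7 CPM). The 5 genes below it include RPL7L1, a nucleolar relative of RPL7, rps11l, and rps19bp1, which encodes a protein that binds RPS19 and is not itself part of the ribosome. The symbol rule thus took at least 1 gene that is no ribosomal protein. All 85 passed the filter on low counts. In total 8 members share a symbol with another member (RPL5 and RPS26 among them, case ignored), and these are named with their identifier where it matters. Their values are uncertain where copies share reads, as are those of near-identical pairs such as rps27.1 and rps27.2. The library kit does not mark strand, so reads of antisense genes cannot be told apart from those of a member.

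Total counts were from 33046127 to 49579666 per library. Intestinal transcripts were called present in 7 libraries, by a limit of more than 100 plain CPM of fabp2, the intestinal fatty acid binding protein. These were exercised 3-year replicates 1, 2 and 5, resting 3-year replicate 3, exercised 1-year replicates 3 and 4 and resting 1-year replicate 5, and they are called intestine-bearing below. All 13 intestine marker genes were detected, and their summed plain CPM ranged over 284 to 29900 in exercised 3-year, 375 to 7062 in resting 3-year, 1580 to 27081 in exercised 1-year and 428 to 37038 in resting 1-year fish. The summed hepatocyte markers ranged over 115648 to 296623, 177065 to 302501, 133588 to 257565 and 128223 to 311718 plain CPM in the same groups, with 22 of 23 genes detected and cpn1 at 0. The summed exocrine pancreas markers ranged over 53.1 to 78064, 1572 to 100621, 1022 to 22738 and 189 to 129791 plain CPM in the same groups. All 13 of those genes were detected. Resting 3-year replicate 4 stood apart by its ribosomal protein level (given below). The part of these differences in the results was not tested beyond the values given without these libraries or with intestinal reads as a term in the model.

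Ribosomal protein mRNAs were highly abundant for their length. Their median was 707 RPKM (counts divided by gene length and library size, computed from the raw counts), against 1.79 RPKM over all 18079 genes tested. The highest was RPLP0, which holds the other stalk proteins on the large subunit, at 2277 ± 431 RPKM (SD, n = 20). RPS2 (2060 ± 309 RPKM), RPS7 (1897 ± 199 RPKM) and rps20 (1890 ± 302 RPKM), all of the small subunit, followed. Their means lay closer together than their SD, and no order among them held in every fish. Among the 80 abundant genes the highest mean was 9.52 times the lowest, that of RPS24 at 239 ± 28.6 RPKM. Close above RPS24 were RPL22L1 (243 ± 47.6), RPL31 (264 ± 34.4) and rps27.2 (269 ± 30.4 RPKM), with means within the spread between fish. Much of that spread is shared by the genes. Within each fish RPL31 and rps27.2 were above RPS24 in all 20, and RPL22L1 was not. Among the 5 scarcer genes, rps27l had 117 ± 41.6, rps11l 12.5 ± 16.3, RPL7L1 10.5 ± 3.75 and rps19bp1 7.29 ± 1.38 RPKM. Both subunits were spread over the whole range.

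**Figure D1:**
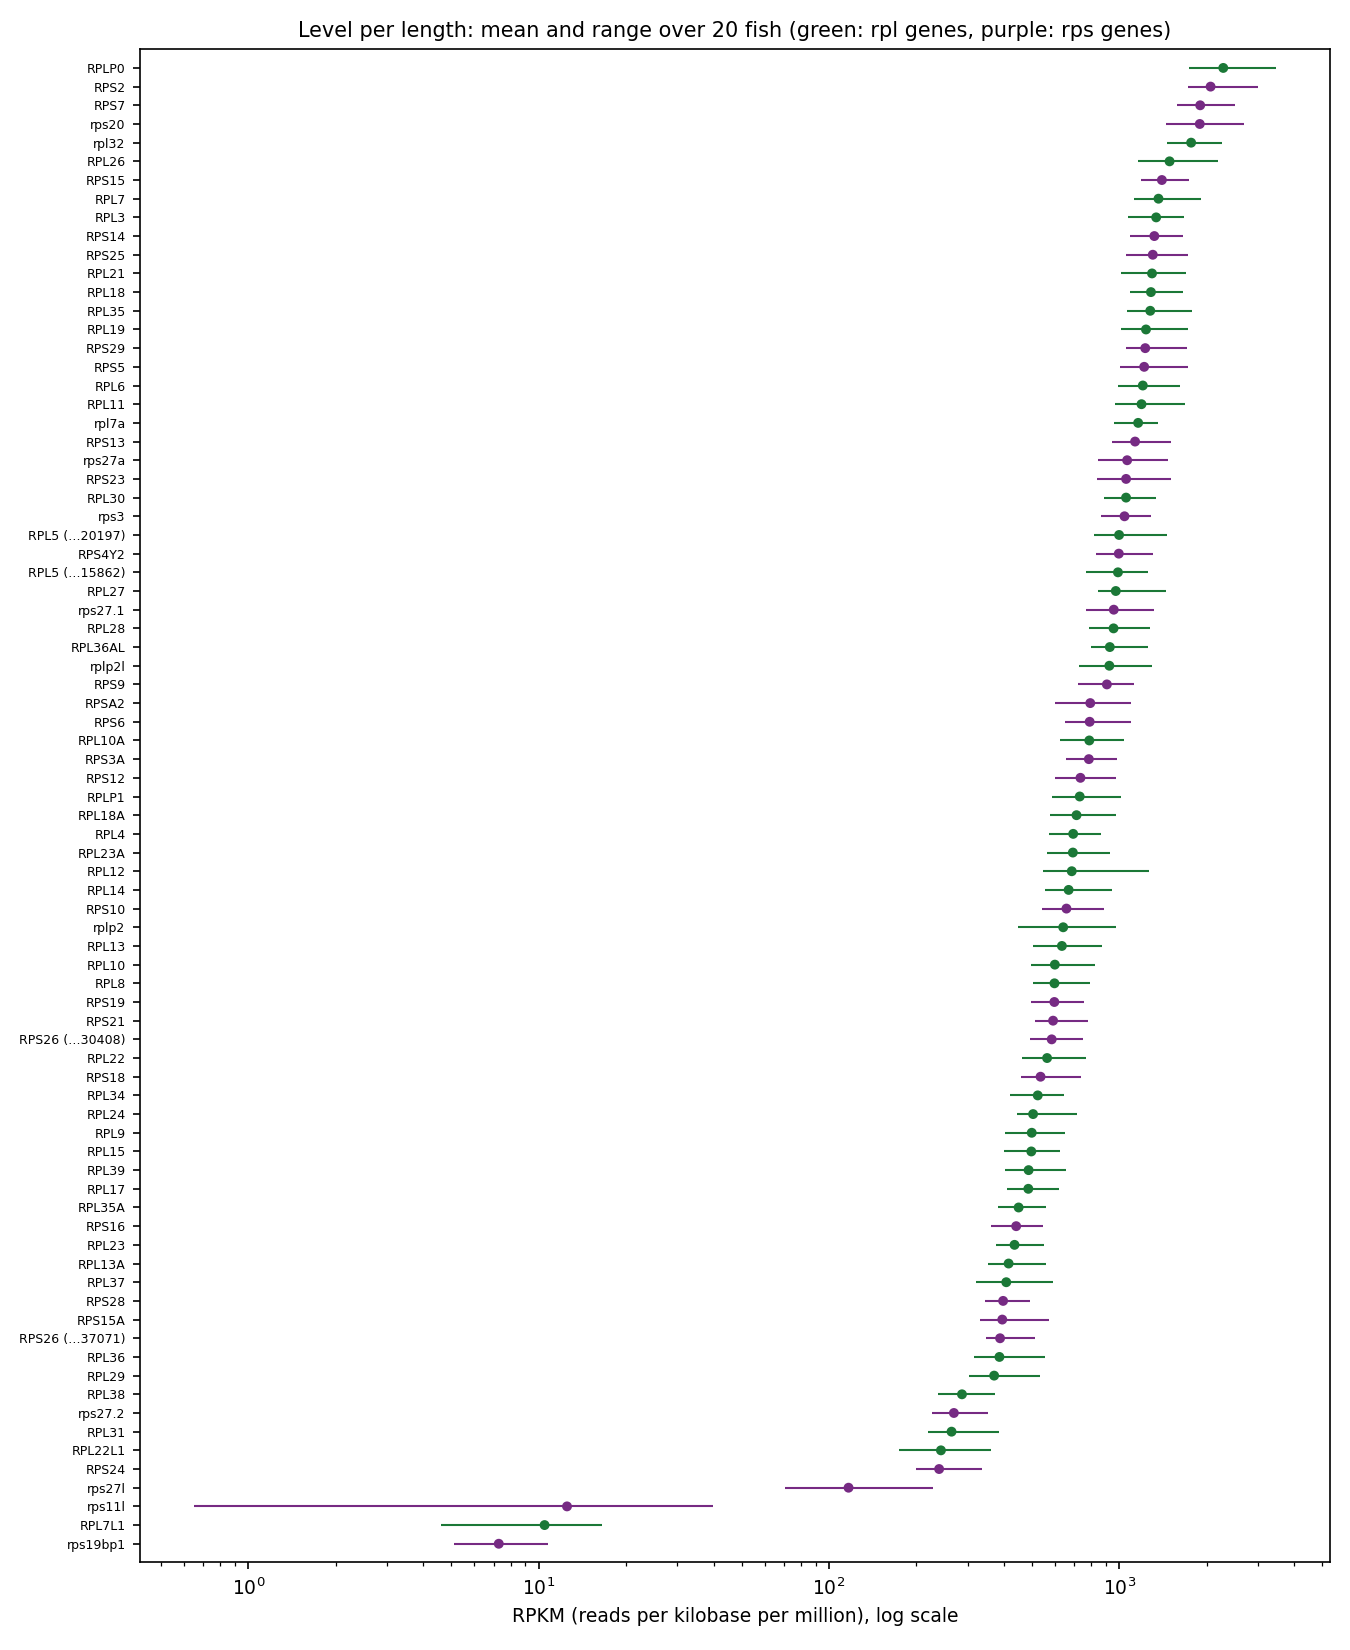
Mean level (points) and range (lines) of 80 of the 85 genes over the 20 fish, in RPKM on a log scale, green for rpl and purple for rps genes. Most genes sit between 239 and 2277 RPKM, with 4 genes below, and rps11l has the widest range.

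Together the 85 genes took 5.95% to 9.67% of all counts in a fish. In exercised 3-year fish the share was 7.72%, 7.12%, 7.11%, 6.74% and 7.57%. In resting 3-year fish it was 7.16%, 7.86%, 7.10%, 9.67% and 7.87%. In exercised 1-year fish it was 6.96%, 7.11%, 6.90%, 7.23% and 6.89%, and in resting 1-year fish 6.67%, 6.63%, 6.57%, 5.95% and 7.28%. The groups of each age overlapped, and the highest share belonged to resting 3-year replicate 4. After TMM scaling the sum averaged 63073 ± 9293 CPM in exercised 3-year and 89767 ± 26016 CPM in resting 3-year fish. It averaged 69645 ± 6518 CPM in exercised 1-year and 71013 ± 11109 CPM in resting 1-year fish (SD, n = 5 each). The 2 scales ordered the fish differently, and the library size that TMM used ran from 0.739 to 1.39 times a library's own total count. In the 7 intestine-bearing libraries the TMM-scaled sum was 52262 to 71102 CPM, and in the other 13 it was 66089 to 130857 CPM, while the percent of counts was 6.90 to 7.72 and 5.95 to 9.67. Among 3-year fish that were not intestine-bearing, the exercised fish were at 71232 and 74276 CPM and the 4 resting fish between 74931 and 130857 CPM. In bulk liver, fewer cells of a type and less RNA per cell cannot be told apart.

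**Figure D2:**
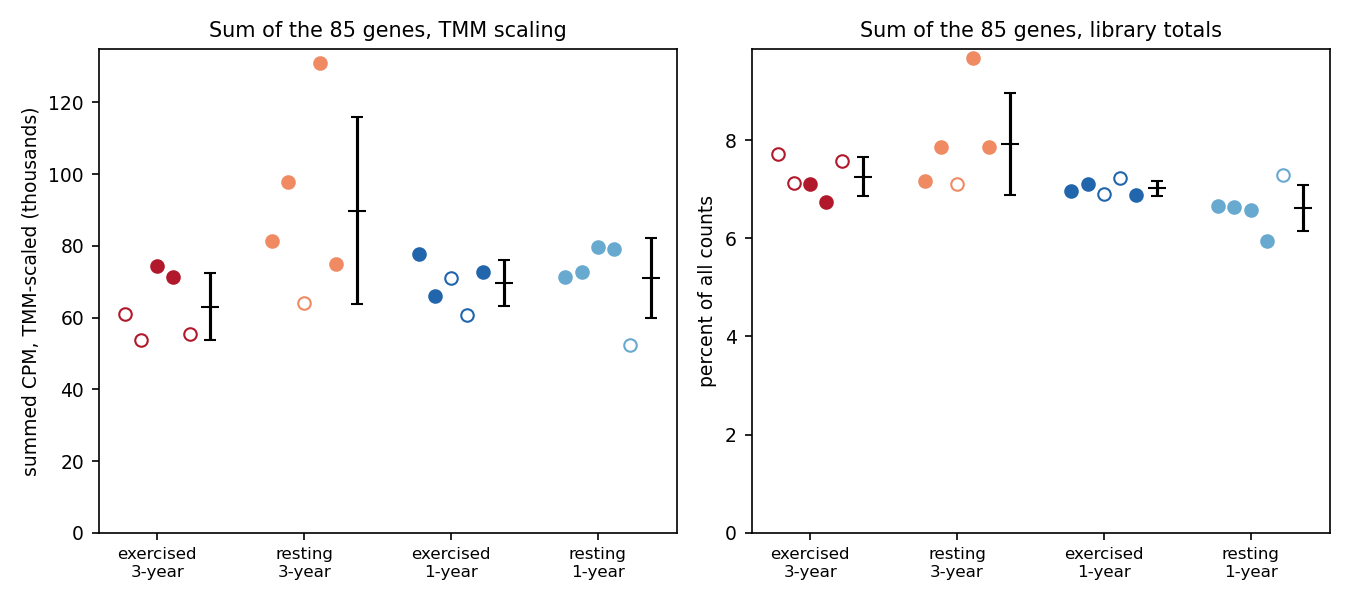
Summed level of the 85 genes in each fish, in TMM-scaled CPM (left, axis in units of 1000) and as percent of all counts (right), with mean and SD beside the points and open symbols for intestine-bearing libraries. The resting 3-year group has the highest mean on both scales, led by replicate 4 at 130857 CPM, and the groups overlap.

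The 80 abundant genes moved together from fish to fish. For each gene the log2 CPM in a fish was set against that gene's mean over the 20 fish. In resting 3-year replicate 4 all 80 genes were above their own mean, with a median of 0.86, and in resting 3-year replicate 2 all 80 were above it, with a median of 0.42. In resting 1-year replicate 5 none of the 80 was above its mean (median -0.43), nor in exercised 3-year replicates 2 and 5 (medians -0.41 and -0.37) or exercised 1-year replicate 4 (-0.22). Those 4 low fish were all intestine-bearing. Within a fish the genes lay close to each other. The interquartile range of these deviations was 0.0540 to 0.125, with a median of 0.0848. A gene's SD over the 20 fish had a median of 0.30 on the log2 scale, and 0.0624 once each fish's median was subtracted. Scaled by library totals instead, the SD over fish had a median of 0.15, and resting 3-year replicate 4 still had all 80 genes above their mean (median 0.42). The 4 low fish did not stay low on that scale. Above their mean were 62 genes in resting 1-year replicate 5 (median 0.050) and 56 in exercised 1-year replicate 4 (0.033). In exercised 3-year replicates 2 and 5 there were 42 and 69 (0.004 and 0.079).

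**Figure D3:**
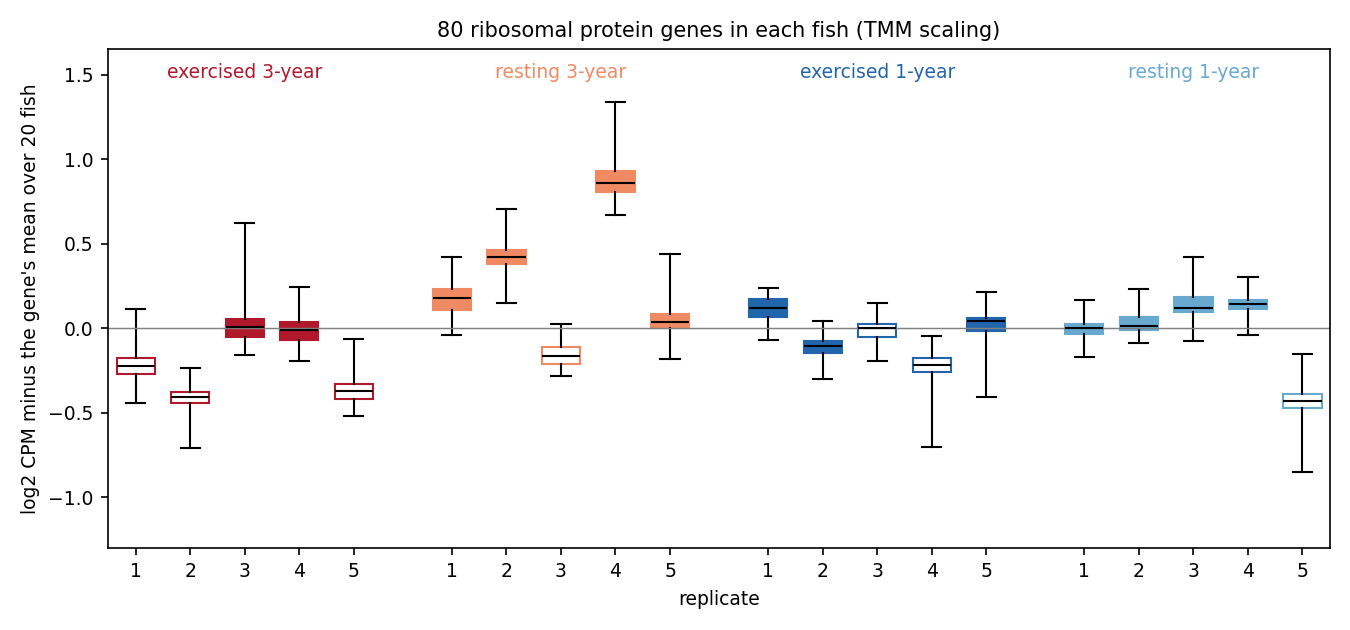
Deviation of the 80 abundant genes from their own mean over 20 fish (log2 CPM, TMM scaling), a box per fish with median, quartiles and full range, white boxes for intestine-bearing libraries. Boxes are narrow against the distance between fish, which runs from -0.43 in resting 1-year replicate 5 to 0.86 in resting 3-year replicate 4.

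Several proteins of the stalk, the flexible arm of the large subunit that recruits translation factors, were among the looser followers of this common movement, which is a description with no test. After the fish median was subtracted the SD was 0.215 for RPLP0, 0.205 for rplp2, 0.164 for RPLP1, 0.144 for RPL12, which sits at the stalk's base, and 0.108 for rplp2l, whereas 66 of 80 genes were under 0.1. This measure also counts as loose a gene that moves the same way as the others but farther. Before the subtraction RPLP0 had the largest SD of the abundant genes, 0.460, against 0.299 for rplp2 and a median of 0.30. Loose followers outside the stalk, all looser than rplp2l, included RPL22L1 (0.202), RPS2 (0.165), RPL19 (0.148), RPSA2 (0.130) and rps20 (0.123). The tightest were RPS6, the small subunit protein that S6 kinases phosphorylate (0.0234), RPL8 (0.0300), RPL28 (0.0301) and RPL9 (0.0332). RPLP0 had 1936, 1631, 3272, 2825 and 2086 CPM in exercised 3-year fish, against 3146, 4281, 2212, 5479 and 3154 CPM in resting 3-year fish. RPS6 had 1079, 943, 1241, 1236 and 980 CPM in exercised 3-year fish, against 1386, 1708, 1127, 2375 and 1307 CPM in resting 3-year fish. Both genes were highest in resting 3-year replicate 4, and the groups overlapped for both.

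The exercise effect at 3 years compares exercised with resting 3-year fish. No member passed the edgeR quasi-likelihood test with Benjamini-Hochberg adjustment over all genes (adjusted p under 0.05), and 0.0% of all genes did, with a smallest adjusted p among members of 0.148. The fitted values were nearly all on 1 side. The abundant members moved together from fish to fish, so counts of members, here and below, are not separate evidence. Of 85 members 82 had a negative log2 fold change, with a median of -0.50 and quartiles of -0.54 and -0.46, beside a median of 0.04 over all genes. An unadjusted p under 0.05 was reached by 78 members, all lower, beside 8.96% of all genes in that direction. DESeq2 called 9 members, all lower, where it called 3.41% of all genes, 1.91% as lower. They were RPL12, RPL23, RPL39, RPL4, RPL13A, RPS7, RPS13, rps27a and RPSA2, at adjusted p of 0.0206 to 0.0499. limma-voom called none (0.0% of all genes), and neither did limma-trend on RPKM (0.0166% of all genes). Large and small subunit genes did not part, with medians of -0.51 over 46 and -0.49 over 34 abundant genes.

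RPL12 had the smallest p. Its level was 918, 769, 930, 955 and 787 CPM in exercised 3-year fish, against 1172, 1479, 965, 2630 and 1199 CPM in resting 3-year fish. With TMM scaling the groups did not overlap, but by a narrow margin between 955 and 965 CPM. With library totals only they overlapped. Per length and library total RPL12 averaged 656 ± 75.5 RPKM in exercised and 842 ± 241 RPKM in resting 3-year fish (SD). The log2 fold change was -0.77 ± 0.22 (SE, edgeR adjusted p = 0.148). RPL23, also of the large subunit, had 606, 541, 646, 642 and 521 CPM in exercised 3-year fish, against 874, 898, 598, 1208 and 799 CPM in resting 3-year fish. Here the groups overlapped through resting replicate 3, and the fold was -0.57 ± 0.18. RPL39, which lines the tunnel through which the new chain leaves, averaged 500.5 ± 60.5 CPM in exercised 3-year and 735 ± 212 CPM in resting 3-year fish (log2 fold change -0.55 ± 0.18). Of the stalk genes, RPLP0 was at -0.64 ± 0.27, below the lowest abundant small subunit gene at -0.61. RPLP1 (-0.51 ± 0.20), rplp2l (-0.42 ± 0.18) and rplp2 (-0.40 ± 0.18) were within the range of the rest. None of these passed edgeR, and of them DESeq2 called RPL12, RPL23 and RPL39. The 3 members with a positive value, RPL7L1 (0.30 ± 0.21), rps27l (0.19 ± 0.18) and rps19bp1 (0.08 ± 0.14), were all among the 5 scarce ones.

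The size of this difference depended on single libraries and on the scaling. Without resting replicate 4 the median over members was -0.33. Without the intestine-bearing libraries it was -0.42, with 2 exercised and 4 resting fish left, and without both it was -0.22. With library totals only it was -0.12, while the median of all genes then moved to 0.39. Members minus all genes was thus -0.51 with library totals and -0.54 with TMM. The count of members with an unadjusted p under 0.05 changed most, as it was 6 with library totals (3 lower and 3 higher), 5 with limma-trend (2 lower and 3 higher) and 4 without the intestine-bearing libraries. It was 25 lower and 1 higher without resting 3-year replicate 4, and 46 with only the 3-year groups in the fit. With intestinal reads as a term in the model the median was -0.36, and 49 members, all lower, reached such a p.

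**Figure D4:**
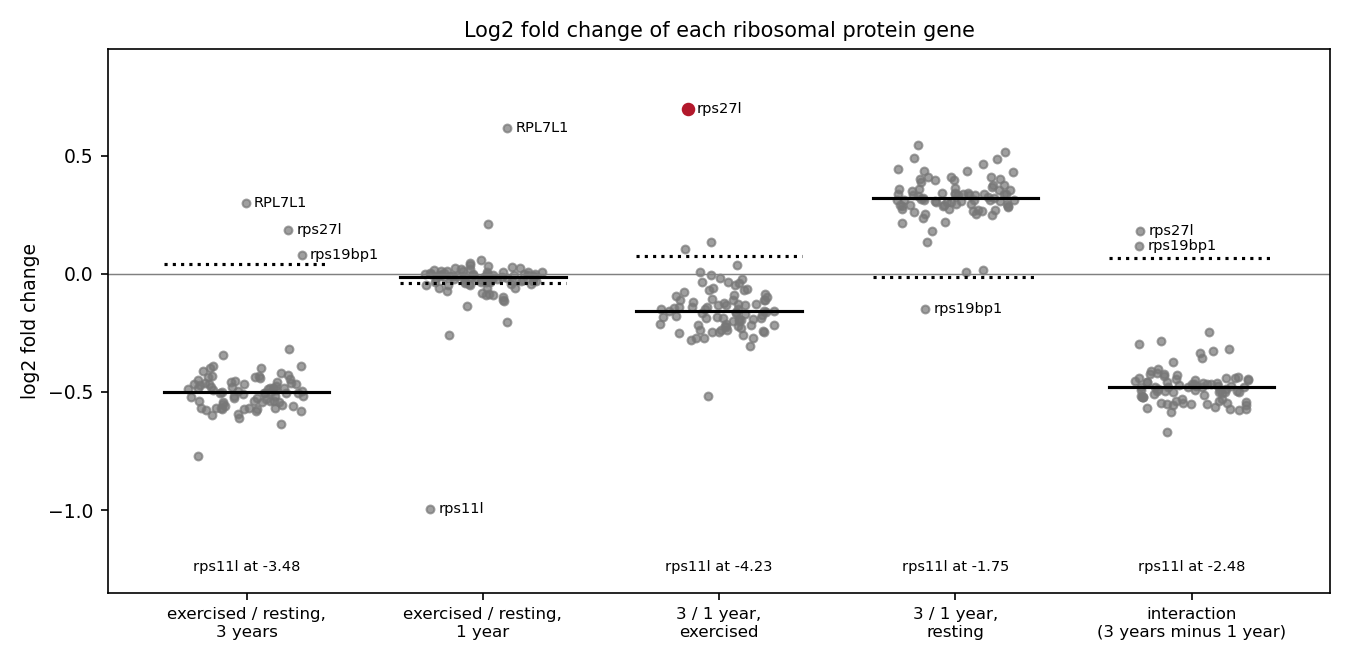
Log2 fold change of each of the 85 genes in the 5 contrasts, with the members' median (solid line), the median of all genes tested (dotted line) and the single called gene in red. In the exercise contrast at 3 years the members' median is -0.50 and at 1 year it is -0.02, and rps11l lies off the scale in 4 of the 5.

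Exercise at 1 year gave a median over members near 0, whose sign depended on single libraries. No member passed edgeR, where 2.85% of all genes did, and 1 had an unadjusted p under 0.05, higher, beside 7.18% of genes in that direction. DESeq2, limma-voom and limma-trend also called none, where they called 6.63%, 2.88% and 1.29% of all genes. The median was -0.02, beside -0.04 over all genes, and 62 of 85 values were negative. With library totals only the median was on the other side of 0 at 0.10, with 81 positive values. Without resting 1-year replicate 5 it was -0.12, with 83 negative values. It was above 0, between 0.01 and 0.03, without resting 1-year replicate 3 or 4 or exercised 1-year replicate 2 or 4, and 0.07 with intestinal reads as a term. RPS6 averaged 1248 ± 109 CPM in exercised 1-year and 1232 ± 187 CPM in resting 1-year fish (SD, n = 5 each). The gene farthest from the rest upward was RPL7L1, whose product is found in the nucleolus, where ribosomes are assembled. It had 28.4, 27.9, 19.9, 25.9 and 19.6 CPM in exercised 1-year fish, against 21.4, 18.7, 10.4, 13.7 and 15.3 CPM in resting 1-year fish. Only resting replicate 1 reached into the exercised range. The log2 fold change of 0.62 ± 0.21 did not pass (edgeR adjusted p = 0.149). The stalk gene RPLP1 was at -0.26 ± 0.20, RPL22L1 at -0.21 ± 0.20 and RPL5 ENSDARG00000015862, whose product carries the smallest ribosomal RNA, at 0.06 ± 0.18, none of which passed.

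The age effect at rest compares resting 3-year with resting 1-year fish. No member passed edgeR, where 3.5% of all genes did, and 13 had an unadjusted p under 0.05, all higher, beside 8.38% of genes in that direction. DESeq2, limma-voom and limma-trend called none, where they called 8.41%, 3.26% and 2.12% of all genes. Of 85 values 83 were positive, with a median of 0.32 beside -0.01 over all genes, and with library totals only the median was 0.24 beside -0.10. The median was 0.14 without resting 3-year replicate 4 and 0.18 without resting 1-year replicate 5, and in each case 1 member was higher at an unadjusted p under 0.05. That count was 58 without resting 3-year replicate 3, 40 with library totals only and 36 with intestinal reads as a term. The smallest p belonged to rps27l (0.51 ± 0.18, adjusted p = 0.121), RPL12 (0.55 ± 0.22, adjusted p = 0.194) and RPL22L1 (0.49 ± 0.20, adjusted p = 0.200). RPL12 averaged 1489 ± 663 CPM in resting 3-year and 1019.6 ± 133 CPM in resting 1-year fish (SD, n = 5 each). Its 3-year spread was set by replicate 4, and the groups overlapped. Of the 2 negative values, that of rps19bp1 was -0.15 ± 0.14, and the other was that of rps11l, described below.

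The age effect after exercise compares exercised 3-year with exercised 1-year fish, and it held the only member that edgeR called. The gene rps27l encodes a paralog of RPS27 and is known in human cells as a target of p53. It had 106.1, 71.0, 77.0, 108.8 and 72.3 CPM in exercised 3-year fish, against 51.4, 47.6, 54.0, 61.9 and 53.7 CPM in exercised 1-year fish. With TMM scaling the groups did not overlap. With library totals only they just overlapped, exercised 1-year replicate 4 being marginally above exercised 3-year replicate 3. The gene was higher in the older fish by 0.70 ± 0.18 on the log2 scale (SE, edgeR adjusted p = 0.0199). This was 1 of 85 members, where edgeR called 9.17% of all genes, 3.91% as higher, and 3 members had an unadjusted p under 0.05, beside 25.3% of genes. DESeq2, limma-voom and limma-trend called rps27l too, where they called 16.7%, 9.13% and 5.98% of all genes. The call was lost without the intestine-bearing libraries (0.79, adjusted p = 0.117), when 2 exercised 3-year and 3 exercised 1-year fish were left. It was also lost without exercised 1-year replicate 2 (adjusted p = 0.0684), exercised 3-year replicate 1 (0.0569) or exercised 3-year replicate 4 (0.0534), with a fold of 0.60 to 0.61 in those 3. With intestinal reads as a term it held (0.70, adjusted p = 0.0180). Myeloid markers separated the same groups, and lymphocyte markers did not. The summed plain CPM of 19 myeloid markers, all detected, was 558 to 896 in exercised 3-year and 278 to 418 in exercised 1-year fish, which did not overlap, and 248 to 664 in resting 3-year and 265 to 698 in resting 1-year fish. That of 11 lymphocyte markers, all detected, was 5.72 to 28.9 in exercised 3-year and 1.31 to 17.9 in exercised 1-year fish, which overlapped. The marker sums are in plain CPM and the rps27l levels are TMM-scaled. On either scale the 2 exercised 3-year fish highest in rps27l were replicates 1 and 4. Replicate 1 had the lowest myeloid sum of that group (558 plain CPM) and replicate 4 the highest (896 plain CPM). The part of immune cells in the result was not tested. The difference between ages in rps27l was not shown to depend on exercise (interaction 0.18 ± 0.25, adjusted p = 0.734). The median over the 85 members was -0.16, beside 0.08 over all genes, and 80 of 85 values were negative. With library totals only the members' median was on the other side of 0 at 0.04, when that of all genes was 0.27. Without the intestine-bearing libraries it was -0.09, beside -0.06 over all genes. DESeq2 also called rps11l as lower, where it called 8.9% of all genes in that direction. RPL35A (-0.28 ± 0.18), RPL22L1 (0.13 ± 0.20) and rplp2 (0.11 ± 0.18) did not pass.

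The interaction asked whether the exercise difference at 3 years was unlike that at 1 year. No member passed edgeR, where 0.979% of genes did, and 8 had an unadjusted p under 0.05, all lower, beside 7.04% of genes in that direction. DESeq2, limma-voom and limma-trend called none, where they called 3.8%, 0.802% and 0.31% of all genes. The median was -0.48 beside 0.07 over all genes, with 83 of 85 values negative and a smallest adjusted p of 0.310. RPL12 was at -0.67 ± 0.31, RPS7 at -0.58 ± 0.26 and RPL23 at -0.56 ± 0.25. Without resting 3-year replicate 4 the median was -0.31, and with library totals only it was -0.21, when that of all genes was 0.34. The count at an unadjusted p under 0.05 was 0 under either of these, 60 without resting 3-year replicate 3 and 20 with intestinal reads as a term. The 5 contrasts share fish, so their medians are not separate evidence. The resting 3-year fish enter 3 of them.

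Members that come as relatives with one name root differed in how they stood to each other. Per length, rps27l was at 16.9% ± 2.61 of rps27.1 in exercised 3-year, 11.2% ± 1.66 in resting 3-year, 10.03% ± 1.30 in exercised 1-year and 10.1% ± 1.41 in resting 1-year fish (SD, n = 5 each). The exercised 3-year fish, from 13.6% to 20.4%, lay above every other fish, of which the highest was at 13.5%. The other relative, rps27.2, kept to 26.8% to 29.5% of rps27.1 as group means. RPL7L1 was at 0.940% ± 0.250 of RPL7 in exercised 3-year and 0.523% ± 0.157 in resting 3-year fish, and at 0.981% ± 0.223 in exercised 1-year and 0.651% ± 0.217 in resting 1-year fish. Its exercised and resting fish overlapped at each age. RPL22L1 was at 43.6% ± 5.60 of RPL22 in exercised 3-year, 47.9% ± 5.20 in resting 3-year, 37.6% ± 6.14 in exercised 1-year and 43.2% ± 3.93 in resting 1-year fish. These groups overlapped except for resting 3-year (43.7% to 57.0%) and exercised 1-year fish (28.9% to 42.4%). The RPL5 genes were on average at nearly equal levels per length, ENSDARG00000020197 having 94.1% to 106.3% of ENSDARG00000015862 as group means. In single fish that ratio ran from 84.9% to 131.4%. These ratios are descriptions and carry no test.

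The gene rps11l had 2 separate levels in these fish and nothing between. It had 0.361, 0.356, 0.379, 0.409 and 0.579 CPM in exercised 3-year fish, and 21.0, 0.686, 0.539, 0.912 and 0.346 CPM in resting 3-year fish. It had 0.630, 0.545, 20.4, 17.2 and 0.726 CPM in exercised 1-year fish, and 0.486, 19.9, 21.5, 20.8 and 16.0 CPM in resting 1-year fish. So 7 fish were at 16.0 to 21.5 CPM and 13 at or under 0.912 CPM, and the counts ran from 12 to 1014. The high fish were 4 resting 1-year, 2 exercised 1-year, 1 resting 3-year and no exercised 3-year fish. Of the 7, 3 were intestine-bearing, as were 7 of all 20 libraries. The fold between ages after exercise was -4.23 ± 1.36 (edgeR adjusted p = 0.0587), which DESeq2 called (adjusted p = 0.00285). Between ages at rest it was -1.75 ± 1.21, or -4.67 without resting 3-year replicate 1, when it passed edgeR (adjusted p = 0.0333). The fold was -3.48 ± 1.32 for exercise at 3 years, where that single fish also decides it (-0.56 without it), and -0.99 ± 1.18 at 1 year.

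**Figure D5:**
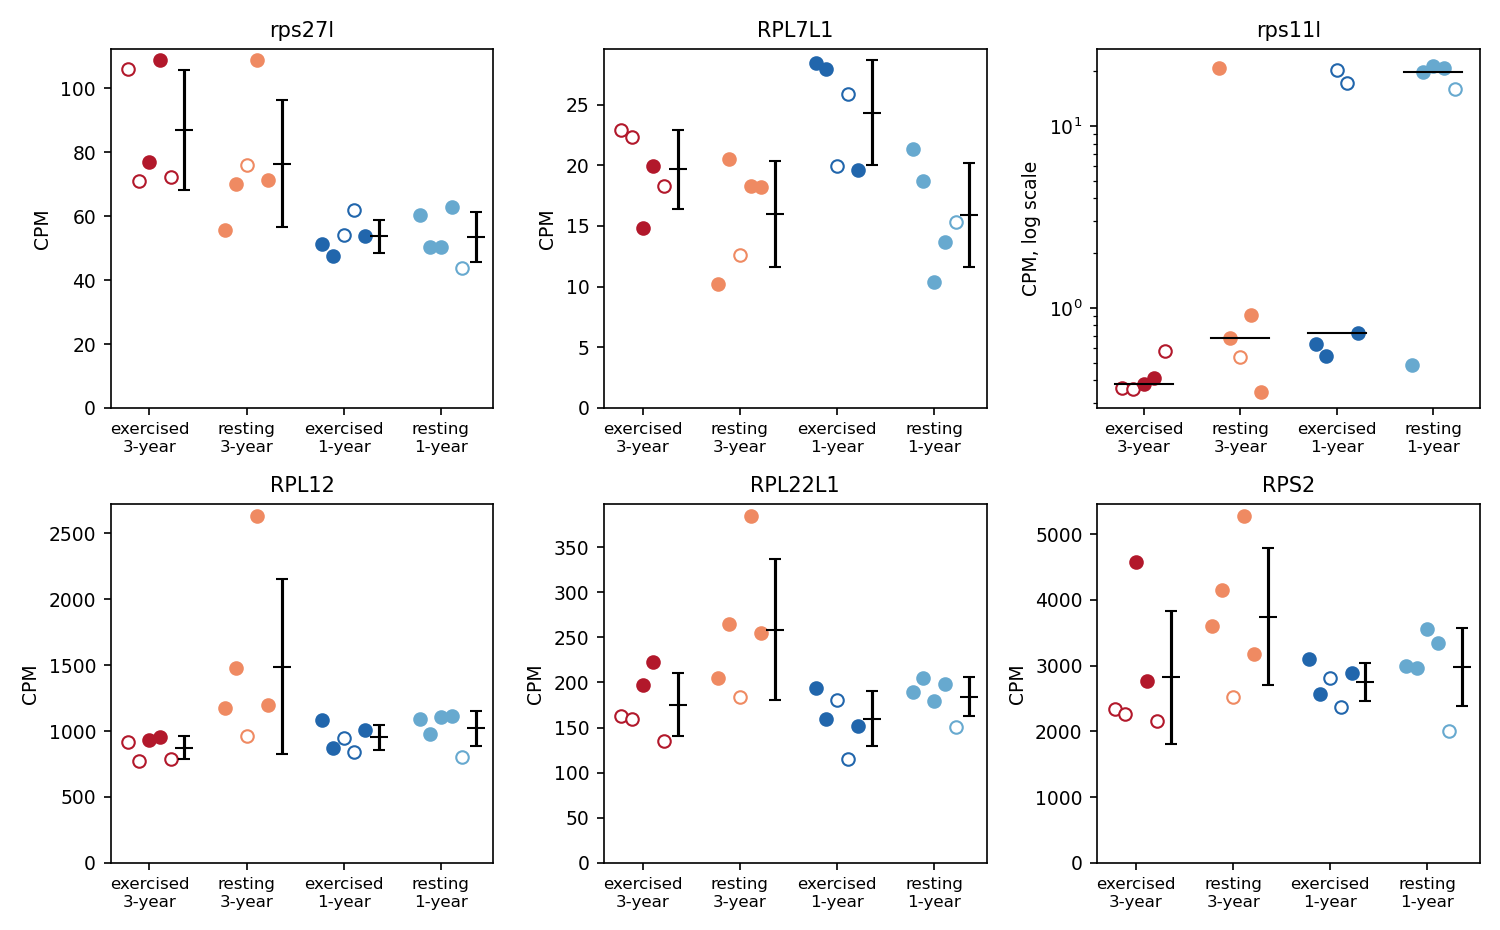
Level of 6 members in each fish, in TMM-scaled CPM (log scale for rps11l), with mean and SD beside the points (median line for rps11l) and open symbols for intestine-bearing libraries. The rps27l points of exercised 3-year fish, from 71.0 CPM, lie above those of exercised 1-year fish, up to 61.9 CPM, and rps11l falls into 2 separate levels.

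Ribosomal proteins that the symbol rule leaves out had values like those of the members. FAU, which encodes a ribosomal protein fused to a ubiquitin-like domain, gave a log2 fold change of -0.58 ± 0.19 for exercise at 3 years. RACK1, on the head of the small subunit, gave -0.52 ± 0.18. For exercise at 1 year both were between -0.04 and 0.04, and neither passed edgeR in any contrast.

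The other lists of the pathway had no gene called by edgeR for exercise at 3 years, where it called 0.0% of all genes. In the age contrasts it called 3.5% of all genes at rest and 9.17% after exercise, and with exercise at 1 year 2.85%. Of 19 tested elongation factors and other TOP mRNAs, 1 was called in each age contrast and none in the others. This was EEF1E1, whose product belongs to the aminoacyl-tRNA synthetase complex. It was lower in 3-year fish, with a log2 fold change of -0.89 ± 0.23 at rest (edgeR adjusted p = 0.0431) and -1.52 ± 0.24 after exercise (adjusted p = 0.00134). EEF1E1 was scarce, at 2.80 ± 1.07 CPM in resting 3-year and 5.19 ± 1.27 CPM in resting 1-year fish (SD). In exercised fish it was at 1.61 ± 0.155 CPM at 3 years and 4.62 ± 0.853 CPM at 1 year. The call after exercise held in all 20 fits that leave out 1 library, and the one at rest in 6 of 20. For exercise at 3 years the list's median was -0.21, beside -0.50 for the members. For age at rest it was 0.29, close to the members' 0.32.

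Of 46 tested initiation factors, 7 fell with age after exercise, 1 fell with age at rest, 2 fell with exercise at 1 year and none rose. Over all genes edgeR called 5.25%, 2.26% and 1.47% as lower in these 3 contrasts, and the list was not tested against them. EIF2S2, the beta subunit of the factor that brings the initiator tRNA, averaged 64.5 ± 6.59 CPM in exercised 3-year and 110.9 ± 18.9 CPM in exercised 1-year fish (log2 fold change -0.78 ± 0.18, adjusted p = 0.0120). Its groups did not overlap, and the call held in all 20 fits. EIF2B5, a subunit of the exchange factor eIF2B, was at -0.66 ± 0.16, lost without exercised 3-year replicate 1, EIF4H at -0.47 ± 0.13 and eif1axb at -0.41 ± 0.11, whose calls held in 15 and 13 of 20 fits. With exercise at 1 year EIF2B3, another eIF2B subunit, averaged 2.54 ± 0.410 CPM in exercised and 4.34 ± 0.885 CPM in resting fish (-0.77 ± 0.16, adjusted p = 0.0136, held in all 20 fits). Also lower were eif4ba (-0.81 ± 0.21, held in 9 of 20 fits) with exercise at 1 year and eif5b (-0.66 ± 0.17, held in 8 of 20) with age at rest.

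Of 26 tested genes of mTORC1 and its regulators, 4 fell and 1 rose with age after exercise, beside 5.25% and 3.91% of all genes, and none was called elsewhere. The gene that rose, sesn2, was named after its value was seen. It averaged 3.42 ± 2.24 CPM in exercised 3-year and 1.25 ± 0.513 CPM in exercised 1-year fish (1.44 ± 0.43, adjusted p = 0.0411), and the call held in 11 of 20 fits and was lost with limma-voom (adjusted p = 0.0743). MTOR, the kinase of the complex, averaged 29.9 ± 3.27 CPM in exercised 3-year and 103.9 ± 45.8 CPM in exercised 1-year fish, from 26.5 to 35.03 and from 54.3 to 148.0 CPM (log2 fold change -1.80 ± 0.45, adjusted p = 0.0185). The call was lost without exercised 1-year replicate 3. The other falls were those of SESN1 (-1.32 ± 0.34), DEPTOR (-1.37 ± 0.35) and DDIT4 (-3.84 ± 1.00), whose products restrain mTORC1. The falls are thus of the kinase and of its inhibitors alike, while sesn2, which shares a name root with SESN1, rose. The calls of SESN1, DEPTOR and DDIT4 each held in 16 of 20 fits. Without the intestine-bearing libraries none of the 4 passed, with 2 exercised 3-year and 3 exercised 1-year fish left. The folds were then -2.005, -0.96, -1.11 and -2.44 for MTOR, SESN1, DEPTOR and DDIT4. The 7 tested chaperones of ribosomal proteins had no call in any contrast. Of 10 tested transcription regulators, YY1 ENSDARG00000042796 was higher with exercise at 1 year (0.46 ± 0.11, adjusted p = 0.0312, held in 13 of 20 fits) and MYC ENSDARG00000045695 with age after exercise (1.75 ± 0.43, adjusted p = 0.0172, lost without exercised 1-year replicate 3). MYC was scarce, at 1.64 ± 0.366 CPM in exercised 3-year and 0.485 ± 0.206 CPM in exercised 1-year fish (SD, n = 5 each). Without the intestine-bearing libraries, EEF1E1 and EIF2S2 with age after exercise and YY1 ENSDARG00000042796 with exercise at 1 year still passed, and the other genes named from these lists did not.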

How the data were processed

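The deposited counts are raw whole numbers of reads for each gene. The submitters' processing notes name bcl2fastq 1.8.4, STAR 2.4.1d, featureCounts 1.4.6-p4 and build GRCz10, and the labels' protocols a TruSeq RNA kit (v2). The sources used here give neither the annotation nor the treatment of multi-mapping reads. RPKM as deposited were made by the authors from totals that do not belong to each library: over 1399 genes the implied gene length had a median coefficient of variation of 0.140 with a library's own total and 6.35e-06 with totals repeated down the rows. RPKM was therefore recomputed from counts and that length.

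Symbols came from a gene name table, which matched 26269 genes (81.8%). Members and lists were chosen with earlier results of these data known. Tests used edgeR 4.0.16 in R 4.3.3 (filterByExpr, TMM, 4 group means, glmQLFit and glmQLFTest, Benjamini-Hochberg over 18079 genes, adjusted p under 0.05), with standard errors from the test statistic. The calls and fold changes, but not the standard errors, were checked on simulated counts. Each gene was drawn independently there, so the shared movement of the members was not part of that check. Alternatives were DESeq2 1.42.0 (independent filtering for 0.05, a setting chosen after seeing the data), limma 3.58.1 (voom, and trend on log2(RPKM + 0.1)), other scalings and filters, and left-out libraries. Deviations used log2(CPM + 0.5). Named members are, per contrast, called genes or the 3 rises and 3 falls of smallest p, and those farthest from the members' median, plus the highest and lowest per length, relatives with one name root and the stalk. RPS6, RPL19, the tightest followers and the genes DESeq2 called were named after their values were seen. Sequences and promoters were not analysed here, and 5 members are counted in the summaries but their own values are not reported here.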

Additional observations from a re-analysis of the deposited data

Results flagged for a closer look

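In 26 members and sums, each group of 5 fish was examined for a fish far from the other 4 (Dixon's 95% value), 104 cases in all, of which chance flags about 1 in 20. There were 7 such cases. Resting 1-year replicate 5, an intestine-bearing library with 3480 plain CPM of fabp2, was low for RPL39 (443 CPM, the others 592 to 646) and RPL35A (505 CPM, the others 734 to 768). With TMM scaling no abundant gene was above its own mean in that fish. By library totals it was the highest of the 5 for both genes, so the direction depended on the scaling. In exercised 3-year replicate 3, RPS2 was at 4579 CPM, with the others at 2158 to 2763. In resting 3-year replicate 4, rplp2 was at 541 CPM, with the others at 251 to 316. For rps11l, exercised 3-year replicate 5 was at 0.579 CPM (the others 0.356 to 0.409), resting 3-year replicate 1 at 21.0 CPM (the others 0.346 to 0.912) and resting 1-year replicate 1 at 0.486 CPM (the others 16.0 to 21.5).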

How the results depend on the processing

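No paired analysis was possible because the labels give no replicate numbers. Exercise at 3 years had a median over members of -0.50 (log2), of -0.60 to -0.33 without 1 library each, and of -0.12 with library totals only, -0.11 with limma-trend on RPKM, and -0.22 without the intestine-bearing libraries and resting 3-year replicate 4. DESeq2 called 9 members there, or 10 at its default filtering. The interaction median of -0.48 was -0.58 to -0.31 without 1 library each, -0.21 with library totals only, -0.20 with limma-trend and -0.21 without those libraries and that replicate. Members called for age after exercise (1) were 3 with DESeq2 at either filtering, 2 with only the groups of the contrast, 0 without the intestine-bearing libraries, and 0 to 2 over the fits without 1 library each, as against 0 to 1 for age at rest. The exercised 3-year sum of 63073 CPM was 72547 with library totals only and 72754 without the intestine-bearing libraries. Changes of sign were 0.39 (limma-voom), 0.64 (limma-trend), 0.71 (without the intestine-bearing libraries), 0.43 (without resting 3-year replicate 1) and 0.38 (without those libraries and resting 3-year replicate 4) for the interaction of rps11l, which is -2.48 as reported and -2.78 to 0.43 without 1 library each. Others were -0.057 for RPL5 ENSDARG00000015862 with exercise at 1 year without resting 1-year replicate 5 (up to 0.12 without another library), 0.000676 (library totals only) and 0.011 (limma-trend) for rplp2 and 0.017 for RPS2 (without those libraries and resting 3-year replicate 4, and -0.66 to -0.25 without 1 library each) with exercise at 3 years. The cause was not tested. Of the other values of single named genes, 1155 kept direction and side of the threshold, 16 passed it only under the alternative and 4 no longer passed. The 3 alternatives that put intestinal reads in the model, left out resting 3-year replicate 4 as well, or changed DESeq2's filtering were chosen after seeing the data.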

Other observations

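In exercised 3-year replicate 3 RPL19, of the large subunit, was also far above the other exercised 3-year fish, at 1748 CPM against 895 to 1134 CPM, while RPS6 there was 1241 CPM against 943 to 1236 CPM. The lowest share of counts for the 85 genes, 5.95%, was in resting 1-year replicate 4, which also had the highest summed exocrine pancreas markers, 129791 plain CPM. With library totals only, 0 of the 80 abundant genes were above their own mean in that fish, and with TMM scaling 79 were. The part of the pancreas transcripts in these values was not tested.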
